A study of Mus musculus with 31 samples.

Results

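Upp2, the gene for uridine phosphorylase 2, was described across the livers of 31 BxD/TyJ strains. All probes that the platform annotation names Upp2 were taken, which gave 1 probe (identifier 14328) of the 21765 with a value on every array, for 1 of 15095 named genes. It was chosen by its SD over the strains and by its separation of them into low and high ones in these same values, so its own values below are a description and were not tested.

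BxD/TyJ strains are recombinant inbred mice whose founders were C57BL/6J and DBA/2J, and each strain is fixed for the allele of either founder at a locus. Each strain gave 3 males of 8 weeks, whose liver RNA was mixed into 1 pool and labelled with Alexa Fluor 647, and RNA pooled from 9 male C57BL/6J mice of the same age, labelled with Alexa Fluor 555, was the reference on all arrays. No strain had a second array, and the dyes were not exchanged. The values are normalised log ratios. Neither the log base nor the direction is stated in the labels; they were taken as log2 with the strain on top, a likely direction since Alexa Fluor 647 is read as red and limma sets red over green. The strains carry no treatment. DBA/2J itself was not on an array, the reference is 1 RNA pool, and strain genotypes were not used here.

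Uridine phosphorylases split uridine into uracil and ribose 1-phosphate, which allows the base to be degraded and the sugar to be used. The liver is a main site of uridine turnover, taking up and degrading uridine from the blood and releasing newly made uridine. Mammals have a pair of these enzymes: Upp1 is expressed widely, while Upp2 is best known from liver and kidney, and its transcript is known to follow a daily rhythm in mouse liver.

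The RefSeq promoter table holds 2 starts of Upp2 on chromosome 2, 187850 bases apart. The 250 bases before each are shown because the probe's value is not tied to either start in the files. In capitals are matches on either strand to 4 motifs, none overlapping another here: TATAAA, the core promoter box; AGGTCA, which nuclear receptors bind; CACGTG, the E-box of clock factors; and GGGCGG, the GC box of Sp1. Both are from GRCm38.p6, plus strand, at chr2:58567084-58567333 and chr2:58754934-58755183.
Upp2 start 1: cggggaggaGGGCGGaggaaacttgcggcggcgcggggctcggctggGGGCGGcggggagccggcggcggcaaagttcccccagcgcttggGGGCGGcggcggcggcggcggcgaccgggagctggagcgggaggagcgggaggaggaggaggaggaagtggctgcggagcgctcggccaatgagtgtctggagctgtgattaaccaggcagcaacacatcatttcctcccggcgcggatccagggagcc
Upp2 start 2: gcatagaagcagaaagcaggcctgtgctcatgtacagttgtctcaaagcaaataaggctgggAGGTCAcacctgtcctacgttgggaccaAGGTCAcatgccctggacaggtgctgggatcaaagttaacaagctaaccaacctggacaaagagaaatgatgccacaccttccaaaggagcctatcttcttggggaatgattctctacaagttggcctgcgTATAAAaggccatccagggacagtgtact

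The promoter at start 1 was 73.2% G and C with 29 CG pairs, and held 3 GC boxes and no TATA box. Start 2 had 49.2% G and C and 2 CG pairs, with a TATA box 29 bases before the start and 2 nuclear receptor half-sites. Over 32851 mouse promoters, the median was 52.4% G and C and 6 CG pairs. TATAAA was in 12.4% of them, AGGTCA in 14.0%, CACGTG in 6.02% and GGGCGG in 32.7%. CACGTG was in neither Upp2 window, which says only that these letters are not there.

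Upp2 was low in 24 strains, high in 5 and in between in strains 23 and 40. In the 24 low strains it lay between -2.45 (strain 19, 18.3% of the reference) and -1.50 (strain 39, 35.5%). The strains in between had -0.35 (strain 23) and 0.38 (strain 40). The 5 high strains had 0.77 in strain 11, 0.79 in strain 16, 0.91 in strain 34, 0.96 in strain 13 and 1.68 in strain 8, the last at 321% of the reference. The names low and high only describe this order, whose widest step, 1.15 on the log2 scale or 2.22-fold, lay between strain 39 and strain 23. From the lowest strain to the highest the ratio changed 17.5-fold.

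Within the low strains the order is a close one. Strains 2, 9, 31, 24 and 18 lay between -2.27 and -2.24, and the values of strains 24 and 18 were equal. Strains 12, 22, 6, 20, 29, 14, 32, 1 and 15 followed, from -2.17 to -2.01, and strains 5, 42, 33, 21, 36, 38, 28 and 27 from -1.93 to -1.65. With 1 array per strain there is no spread to set neighbouring strains against, so no order within the low strains is claimed. Among the high strains, 11 and 16 differed by 0.02, and strain 8 stood 0.73 above strain 13.

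The mean over the 31 strains was -1.39 ± 0.22 (SE) and the SD 1.21, which ranked 6 from the highest among all probes. The median SD of all probes was 0.24. The best division of the strains into a low and a high cluster, with at least 6 strains in each, put the 24 low strains on one side and the other 7 on the other, and took up 92.0% of the variance. That share is the largest over all such divisions, for a probe chosen by its separation. No share of other probes is set beside it, so it is not evidence of separate groups. No value of Upp2 reached the limits common to all arrays, -3.84 and 3.65. These are the ends of the distribution that the arrays share and do not mark a limit of detection.

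A group of 4 arrays, those of strains 23, 28, 40 and 42, was unlike the rest, with a median correlation with the other arrays between 0.06 and 0.37, against 0.57 to 0.79 for the other 27. Strains 23 and 40, those in between, were 2 of these. Without the 4 arrays, Upp2 lay at or below -1.50 in 22 strains and at or above 0.77 in 5 (8, 11, 13, 16 and 34), and nothing lay in the 2.27 between them, a 4.81-fold step. The part of the 4 arrays in the middle values was not tested.

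The identifier of the Upp2 probe is a multiple of 8, and such probes were low as a class. The 2532 probes of this kind had means over strains centred on -0.58 (median), and all other probes on 0.04. The pattern also repeated every 480 identifiers. The other 43 probes at the place of Upp2 (place 408 of 480) had panel means from -2.29 to 0.25 with a median of -1.05, and 15 of them were lower than Upp2. The slide layout was not used here, so these are places in the numbering only.

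Set beside these 43 probes, Upp2 ranked from 1 to 17 from the lowest in its 24 low strains and at or next to the top in its 5 highest. On the 27 arrays that did not stand apart, their median lay between -1.43 and -1.09 in every strain, with no rise in the strains where Upp2 was high. In strains 11, 13, 16 and 34 Upp2 was the highest of the 44 probes at the place and in strain 8 the next to highest. In strain 19 it was the lowest, and in strain 39 it ranked 17 from the lowest. On the 4 arrays that stood apart the median at the place was between -0.24 and 0.14, and Upp2 ranked 18 of 44 in strain 23 and 35 in strain 40. Across strains, r between Upp2 and this median was 0.17 over 31 arrays and -0.07 over 27, a description of values that share arrays and reference.

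**Figure D1:**
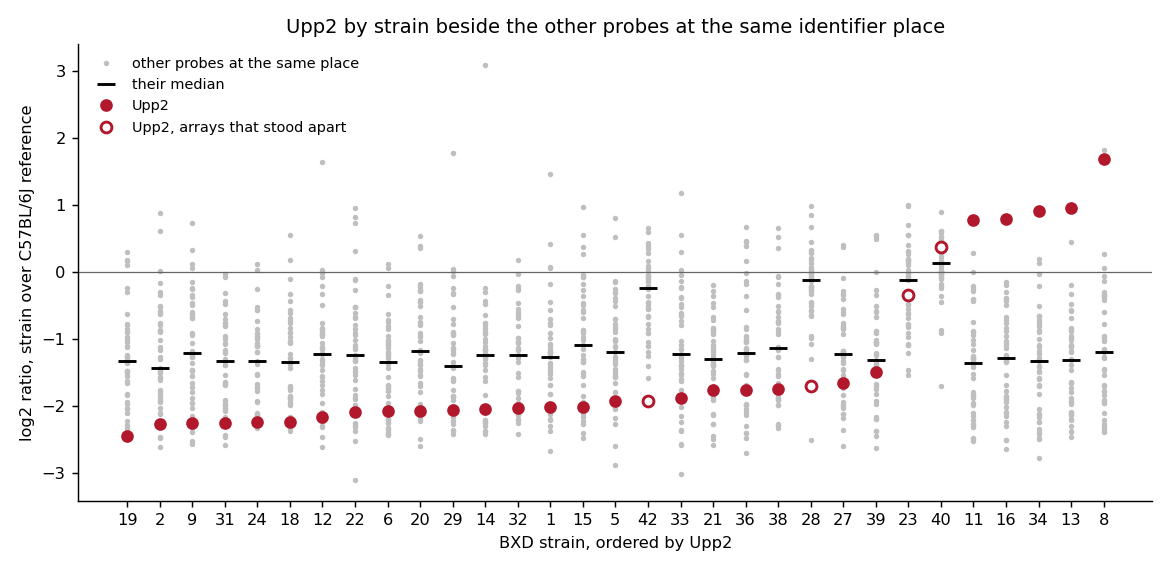
Log2 ratio (vertical axis) of Upp2 in each of 31 strains (horizontal axis, in the order of Upp2), as red points, with the other 43 probes at the same identifier place in grey, their median as a black bar, and open points for the 4 arrays that stood apart. Upp2 lies at or above 0.77 in strains 11, 16, 34, 13 and 8, where the black bars stay between -1.35 and -1.19.

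When the median of like placed probes was subtracted on each array, the level against the reference moved, and so did the place of the widest step. The mean was -0.81 after subtraction of the median of all every 8th probes, -0.93 after that of the 24 nearest of them, and -0.27 after that of the 43 probes at the same place of 480. The same 5 strains were highest each time, from 1.46 to 2.23, from 1.21 to 2.03 and from 2.08 to 2.87. The next strain was 40, at 0.37, -0.02 and 0.24, and the widest step now lay between it and the 5, at 1.09, 1.22 and 1.85. The deposited step between strains 39 and 23 did not hold: after the same place of 480 they were at -0.18 and -0.22, in the reverse order, and after the every 8th median at -0.81 and -0.29. With the same place of 480 subtracted, 4 strains remained below -1, where 24 had been as deposited. The every 8th median left 22 there and the 24 nearest left 24, so the distance of the low strains from C57BL/6J depended on this choice. The SD stayed between 1.17 and 1.21. Over the 27 arrays, the step from strain 39 to the 5 high strains was 2.26 with the same place of 480 subtracted, against 2.27 as deposited.

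**Figure D2:**
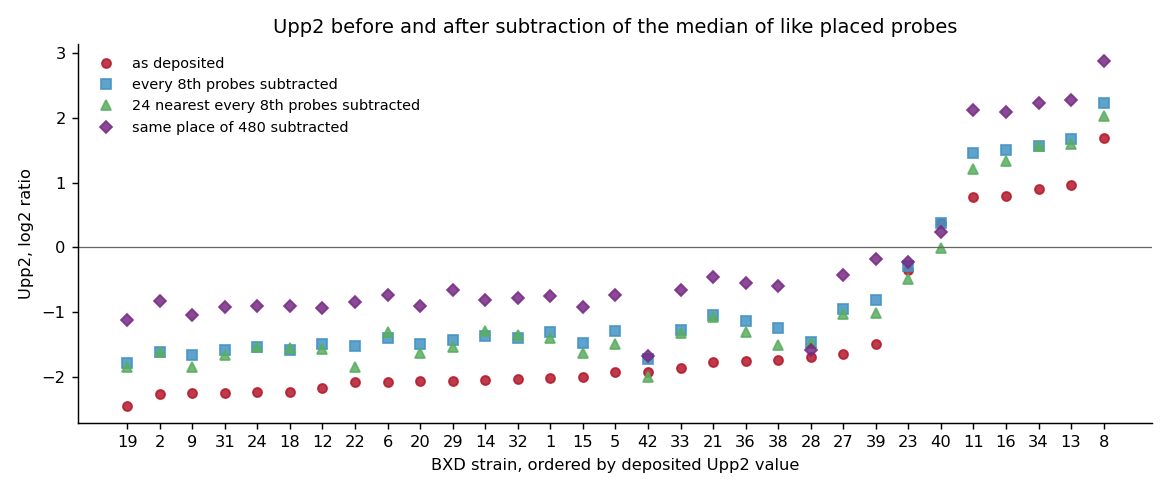
Upp2 log2 ratio (vertical axis) in each strain (horizontal axis, in the order of the deposited values) as deposited and after subtraction of the median of every 8th probes, of the 24 nearest of them, or of the probes at the same place of 480. The mean moves from -1.39 to between -0.93 and -0.27, and strains 11, 16, 34, 13 and 8 remain the 5 highest under all 4.

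The genes most like Upp2 across strains were named by a fixed rule, as the 10 highest and 5 lowest Pearson r over 31 strains among probes with a usable gene name. Pooled r over values that fall into clusters mostly says how the few high strains sit, so r among the 24 strains below -1 is given too, and none of these values was tested. Over the other 21764 probes, r with Upp2 had a median of 0.002 and ran from -0.79 to 0.72, and 0.648% had an r of at least 0.5 in size. That share was 1.77% by Spearman's rho, and 1.24% over the 27 arrays, where r ran from -0.89 to 0.76.

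The opposed probes came closest to Upp2. Serpinb2, which encodes plasminogen activator inhibitor 2, had the lowest r of all probes, -0.79, and Spearman's rho was -0.43. Its values in strains 8, 11, 13, 16 and 34 were -0.92, -0.85, -0.79, -0.75 and -0.59, and those of the other 26 strains lay between -0.33 and 0.36. The groups do not overlap: the 5 strains highest for Upp2 were the 5 lowest for Serpinb2. Among the 24 low strains r was 0.08, and within them the opposition was not seen.

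Ppp2r2b, a regulatory subunit of protein phosphatase 2A known mainly from brain, followed with r = -0.76 and rho = -0.65. In strains 8, 11, 13, 16 and 34 it was -1.44, -0.90, -1.76, -1.07 and -1.62. The other 26 strains lay between -0.68 and 0.22, again with no overlap. Here r among the 24 low strains was -0.49. Without strains 8 and 13, the farthest from the median of Upp2, r was -0.67 for Serpinb2 and -0.63 for Ppp2r2b.

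The search for probes with the same 5 strains at an end was made after these values were seen. Of the 21764 other probes, 3 (0.0138%) had strains 8, 11, 13, 16 and 34 as their 5 highest or 5 lowest. They were Serpinb2, Ppp2r2b and A930004D18Rik. The last, a RIKEN clone gene, was between 0.17 and 0.84 in these strains and between -0.34 and 0.13 in the others (r = 0.56, and 0.76 over the 27 arrays). A930004D18Rik lies on chromosome 2 as Upp2 does, 55 measured genes away of 1108 on the chromosome, while Serpinb2 is on chromosome 1 and Ppp2r2b on 18. The other Serpinb2 probes, 2 in number, had r = -0.02 and 0.10 with Upp2 and did not share the pattern.

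Of the other opposed genes, Nit2, the omega-amidase that removes the amide of alpha-ketoglutaramate, had r = -0.72. It was -0.06, 0.09, 0.35, -0.0041 and -0.60 in strains 8, 11, 13, 16 and 34, and its median over 31 strains was 0.51. The values overlap with those of low strains, since strain 28 had -0.14 and strain 12 had 0.16, and strain 28 is among the arrays that stood apart. Atp5h, a subunit of mitochondrial ATP synthase, and Vwf, von Willebrand factor, had r = -0.63 each. A further Vwf probe had r = -0.13. Among the 24 low strains r was -0.24 for Nit2, 0.11 for Atp5h and 0.02 for the named Vwf probe.

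On the like side no named probe separated the same strains. The 10 highest were Stambpl1 (a deubiquitinase, r = 0.63), Smarcd3 (a subunit of SWI/SNF chromatin remodelling complexes, 0.62), Olfr410 (an olfactory receptor), Dnase2a (the acid nuclease of lysosomes), Uba3 (part of the enzyme that activates NEDD8), Defa3 (a defensin of Paneth cells), Papln, Platr9, Dennd1b and Spns1, down to 0.56. Stambpl1 was 1.45 in strain 34 and 1.04 in strain 8, but 0.28, 0.20 and 0.10 in strains 11, 16 and 13. Smarcd3 was 2.62 in strain 13 and -0.34 in strain 16, on both sides of its median of -0.24. Dnase2a was 0.66 in strain 13 and 0.52 in strain 8 but -1.07 in strain 34, and its r fell from 0.57 to 0.24 without strains 8 and 13. Among the 24 low strains, r of the 10 ran from -0.30 for Stambpl1 to 0.44 for Dennd1b. Of these probes 6 had an SD under 0.3, and Defa3 and Spns1 were every 8th probes.

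**Figure D3:**
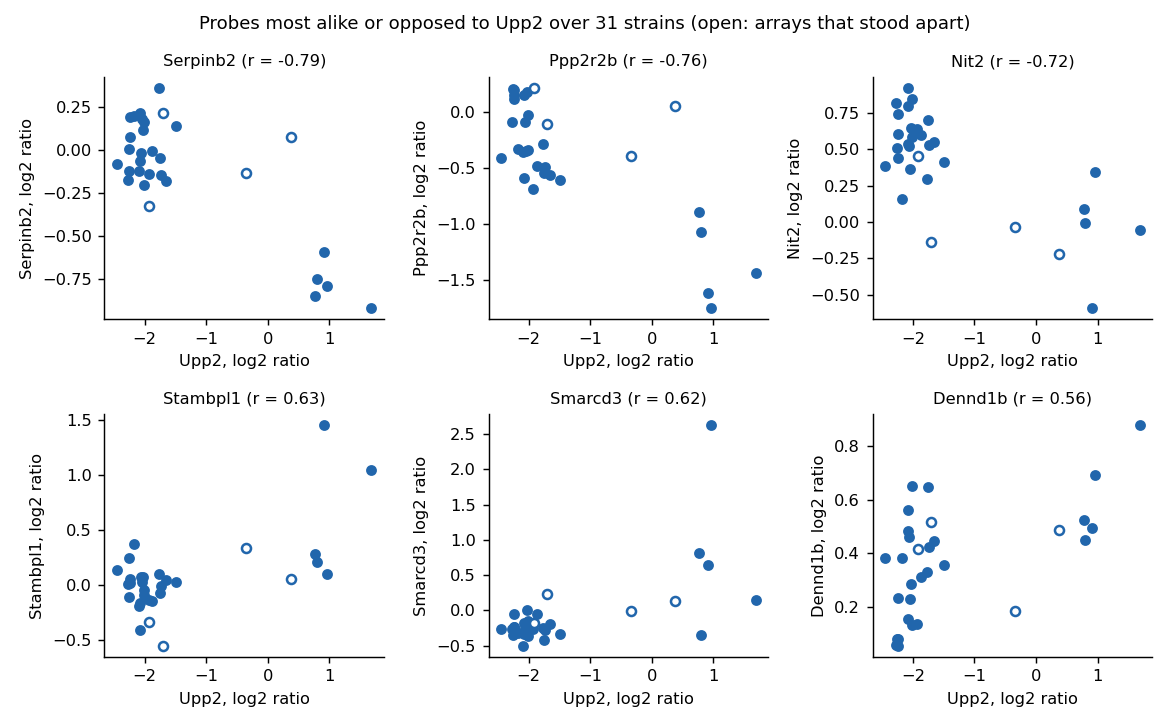
Log2 ratios of 6 genes (vertical axes) against that of Upp2 (horizontal axes) in 31 strains, with 1 point per strain and open points for the 4 arrays that stood apart. For Serpinb2 and Ppp2r2b the 5 strains on the right lie below all others, while for Stambpl1 and Smarcd3 only some of them are high.

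The list of like genes moved with the processing. Of the 10, 8 stayed in the list after subtraction of the every 8th median, 5 after the 24 nearest, 6 after the same place of 480, and 2 without the 4 arrays. Stambpl1 and Smarcd3 were in the 5 highest in each of these 4 lists. Nudt22 (0.64 after the 24 nearest) and Mylk, myosin light chain kinase (0.56 after the same place of 480), entered there. Igsf3 (0.67), Ctnnal1 (0.65) and Itga2b, a platelet integrin (0.64), entered over the 27 arrays. These are results of single probes. As deposited and over all strains, a further Mylk probe had r = -0.34 with Upp2 and -0.19 with the named Mylk probe. For a further Igsf3 probe these were -0.18 and -0.16. A further probe of Dennd1b, which is among the 10, had 0.33 with Upp2 and 0.15 with the named probe. None of the 10 was kept by Spearman's rho. The clone gene B230216N24Rik, outside the naming rule and looked up later, had the highest r of any probe, 0.72. It was 0.76, 0.34, 0.43 and 0.38 in strains 8, 11, 16 and 34 but -0.20 in strain 13.

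None of the 20 measured genes nearest to Upp2 on chromosome 2 reached a Pearson r of 0.5 in size, while Spearman's rho of Cd302 was -0.60. From Stam2 to Acvr1 on one side and from Pkp4 to Itgb6 on the other, r had a median of -0.02 and ran from -0.46 (Cd302, a C-type lectin receptor) to 0.27 (Kcnj3, a potassium channel), and 9 of 20 were above 0. The adjacent genes, Acvr1, an activin receptor, and Pkp4, a plakophilin, had r = 0.22 and -0.30. Ly75, an endocytic receptor, had the widest range of the 20, from -2.50 to 2.34, with r = -0.12. Fmnl2, Rprm, Nr4a2, 4930555B11Rik, Gpd2, Ermn, Cytip, 5330411J11Rik, Dapl1, Tanc1, Wdsub1, Marchf7 and Pla2r1 had r between -0.15 and 0.25. The median r over all other probes was 0.002.

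Clock genes, which drive daily rhythms, were read because of the known rhythm of Upp2. For 16 of 20 listed genes, on 18 probes, r ran from -0.35 for Arntl, the activator also called Bmal1, to 0.25 for a probe of Nfil3, a repressor of D-box genes, and no probe reached 0.5 by Pearson's r. Arntl had rho = -0.54. Dbp, a D-box activator under direct clock control, had r = 0.24 and rho = 0.41, and r = 0.05 with the same place of 480 subtracted. Per2 (0.24) and Rora (0.22) lay at the upper end and Per1 (-0.27) and Bhlhe40 (-0.17) at the lower, while Clock, Npas2, Per3, Cry1, Cry2, Nr1d1, Nr1d2, Tef, Usp2 and the second Nfil3 probe lay between -0.15 and 0.17. The median over the list was 0.08. By the panel mean, tested against 0 with limma (Benjamini-Hochberg over all probes, adjusted p under 0.05), 3 of these probes were higher than the reference, 9 lower and 6 did not pass. That is 66.7%, where 75% of all 21765 probes passed, 37.4% higher and 37.6% lower. The hour of tissue collection is not given in the sources used here.

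**Figure D4:**
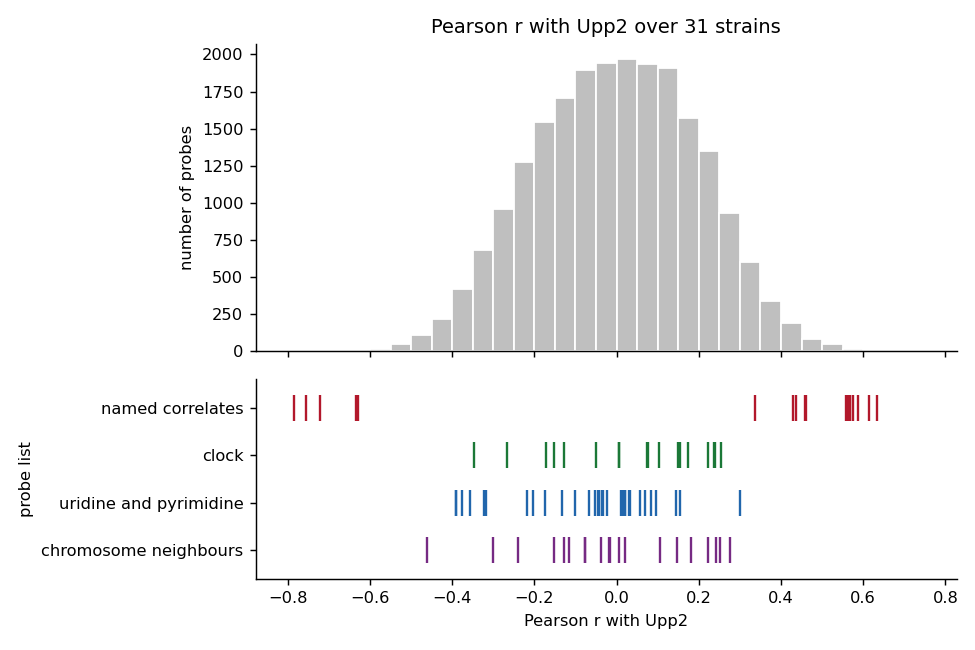
Number of probes (upper panel, vertical axis) by Pearson r with Upp2 over 31 strains (horizontal axis), and r of single probes in 4 lists (lower panel, 1 tick per probe). Chromosome neighbours lie between -0.46 and 0.27, uridine and pyrimidine genes between -0.39 and 0.30 and clock genes between -0.35 and 0.25, and no tick of these lists reaches 0.5 in size.

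The other genes of uridine and pyrimidine metabolism were measured by 32 probes of 30 genes, of 40 listed. By the same test of the means over strains, 12 were higher than the reference, 10 lower and 10 did not pass. The share called, 68.8%, lay near the 75% of all probes. Over all probes it was 72.4% (36.1% higher, 36.3% lower) with the same place of 480 subtracted and 78.1% (39.9% and 38.2%) over the 27 arrays. Of the 32 probes of the list, 11 were then higher and 9 lower with the same place of 480 subtracted, and 13 and 12 over the 27 arrays. The median panel mean of the list as deposited was 0.05, against 0.001 over all other probes. Differences of probe means from the reference can hold a dye effect, since dyes were not exchanged.

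Among the phosphorylases, Upp1 was 0.27 ± 0.04 (SE, n = 31, limma adjusted p = 5.87e-07), above 0 in 28 strains, with its lowest value, -0.25, in strain 28 and its highest, 0.84, in strain 29. Its SD was 0.24, close to the median of all probes, and r with Upp2 was -0.07. Pnp, the purine nucleoside phosphorylase, was higher at 0.25 ± 0.04, and Tymp, thymidine phosphorylase, lower at -0.14 ± 0.04.

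Below the phosphorylases, Dpys, which opens the dihydrouracil ring, was the single measured gene of 4 for the breakdown of the base. Its mean of 0.14 ± 0.11 did not pass (limma adjusted p = 0.21). Its lowest value was -2.55 in strain 16 and its highest 0.92 in strain 15, and strain 16 is one of the 5 high for Upp2. In the other 4, strains 8, 11, 13 and 34, Dpys was -0.0015, -0.08, 0.17 and 0.35, inside the range of the rest. Its r with Upp2 was -0.38, rho was -0.06, and without strain 16 r was -0.19.

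In salvage and interconversion, the uridine kinases went both ways: Uck1 was 0.31 ± 0.06 and Uckl1 0.14 ± 0.03, both higher, and Uck2 lower at -0.33 ± 0.08, down to -1.75 in strain 40, whose array stood apart. Uck2 passed without the 4 arrays too, at -0.22. Cda, cytidine deaminase, and the UMP-CMP kinase Cmpk1 were higher at 0.19 ± 0.03 and 0.14 ± 0.03. Cmpk1 did not pass after any of the 3 subtractions, with means of 0.044 (every 8th median), -0.036 (24 nearest) and -0.068 (same place of 480). Dck, deoxycytidine kinase, was lower at -1.17 ± 0.13 on an every 8th probe, and at -0.62 with the same place of 480 subtracted. Tk1, Tk2, Cmpk2, Tyms and Dut had means between -0.06 and 0.07 that did not pass. Some did so under an alternative: Tk2 was lower after the every 8th median (-0.094) and over the 27 arrays (-0.093), Cmpk2 higher over the 27 arrays (0.11), and Tyms higher after the 24 nearest (0.14) and the same place of 480 (0.12). Dut, the dUTPase, had the lowest r of the list with Upp2, -0.39, which was -0.54 over the 27 arrays and -0.25 with the same place of 480 subtracted. Uck2 also had -0.39, and -0.13 after that subtraction.

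Of 6 probes of nucleotidases, which release nucleosides from nucleotides, 3 were lower, 1 higher and 2 did not pass, 66.7% called against 75% of all probes. Nt5c, on an every 8th probe, was at -0.72 ± 0.04 and below 0 in every strain, at -0.38 with the same place of 480 subtracted and at -0.14 with the every 8th median subtracted. After the 24 nearest it no longer passed, at -0.097 (limma adjusted p = 0.056). Nt5c3 was -0.34 ± 0.11 and Nt5c3b -0.25 ± 0.06. Nt5m did not pass over 31 strains but was lower over the 27 arrays, at -0.12. Its r with Upp2, 0.30, was the highest of the list, and was 0.13 with the same place of 480 subtracted. For Nt5e, the ecto-enzyme CD73, one probe was higher at 0.19 and the other, at 0.08, did not pass, and their r with each other was -0.14.

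In de novo synthesis, both CTP synthases were higher, Ctps at 0.60 ± 0.06 and Ctps2 at 0.38 ± 0.04, each above 0 in 30 strains. Cad, which catalyses the first steps, and Dhodh, the mitochondrial step, were lower at -0.16 ± 0.04 and -0.12 ± 0.03, Dhodh not passing at 0.04 with the same place of 480 subtracted. The probes of Umps, which makes UMP, disagreed: one was higher at 0.31 and the other did not pass at -0.08, with r = 0.17 between them. Among nucleoside transporters, Slc29a2 was lower at -0.57 ± 0.04, as was the concentrative Slc28a2 at -0.15 ± 0.04. Slc28a3 was higher at 0.25 ± 0.07, as was Slc29a1 at 0.11 ± 0.04, which did not pass with the 24 nearest (0.042) or the same place of 480 (-0.0043) subtracted. Slc29a3 did not pass.

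**Figure D5:**
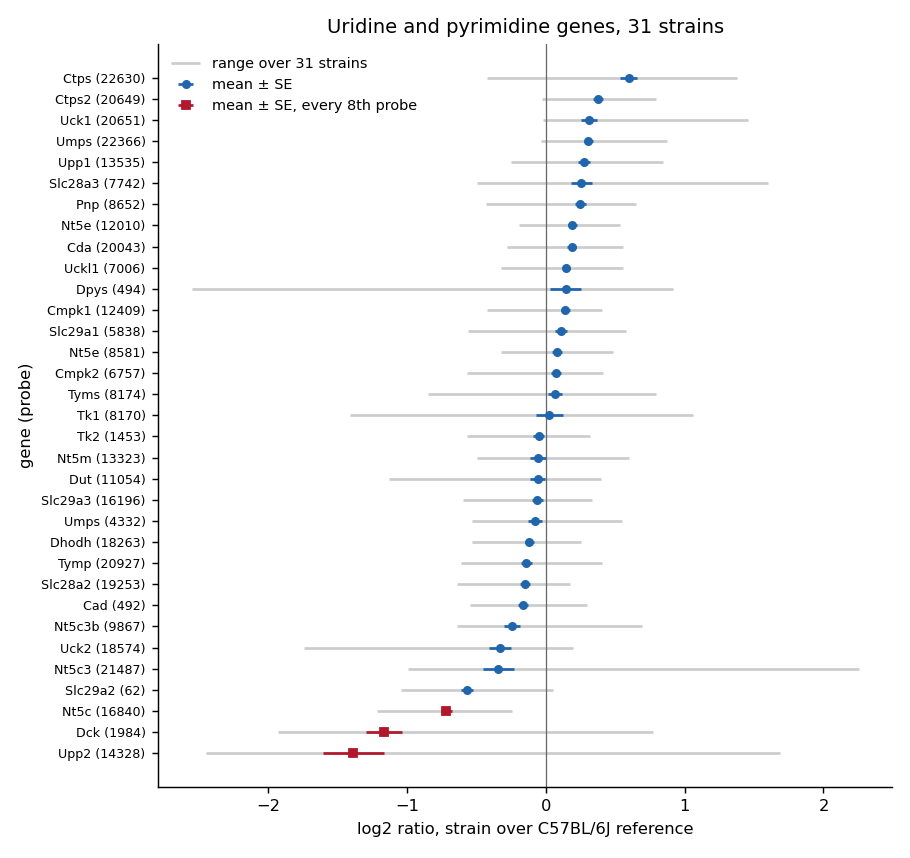
Mean log2 ratio ± SE over 31 strains (horizontal axis) of each probe of a uridine or pyrimidine gene (vertical axis, probe identifier in brackets), with the range over strains as a grey line and every 8th probes as red squares. Upp2, Dck and Nt5c, the 3 every 8th probes, have the lowest means, and the range of Upp2 from -2.45 to 1.68 is the widest.

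Marker lists were read for other cell types in the pooled tissue. Log ratios against another liver pool cannot show whether a marker is present, so the label liver was not checked by level. In bulk tissue, fewer cells of a type and less RNA per cell cannot be told apart. Correlation of a list's mean level with Upp2 was -0.33 for hepatocyte genes (9 of 10 measured, mean level from -0.52 to 0.33 over strains), -0.21 for Kupffer cells (5 of 7, -0.77 to 0.48), -0.10 for exocrine pancreas (6 of 7, -0.32 to 0.71), 0.16 for adipocytes (4 of 6, -0.94 to 0.23) and -0.20 for kidney tubule genes (4 of 4, -0.67 to 0.05; Umod among them marks the ascending limb). Over the 27 arrays these were -0.26, 0.04, -0.12, 0.02 and -0.16. In the adipocyte list Adipoq, on an every 8th probe as Upp2 is, had the widest spread, from -2.75 to 0.34. Its r with Upp2 was 0.22, and 0.08 with the same place of 480 subtracted. Of the single markers, the carrier protein gene Ttr alone had a Pearson r of 0.5 or more in size, at -0.51 (rho = -0.63). This was -0.498 over the 27 arrays, -0.46 after the every 8th median and -0.33 after the same place of 480, all under 0.5 in size. Their part in the pattern of Upp2 was not tested.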

How the data were processed

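Whole liver RNA of 31 strains was measured on 2-colour arrays, 1 array per strain, against a common C57BL/6J pool. The authors deposited normalised log ratios, read here as log2 values, for which the submitters' processing notes list R 2.0.0 and limma. How background and normalisation were handled is not stated there. Sorted, the arrays held 1 distribution to within 0.000256. Intensities were not used, signal over background is therefore unknown, and precision is limited by the array number. Each p-value rests on the spread between strain pools. Scan dates and slides were not used here.

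Of 23040 features, 1275 were empty and 21765 were used. The annotation gave 1 gene for 16642, several for 134, and 4989 were unnamed. RefSeq (GRCm38.p6) updated symbols through gene IDs, matching 15964, and gave the order of genes and the promoter sequences.

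Panel means were tested with limma 3.58.1 in R 4.3.3 (intercept, eBayes, two-sided) on all probes. The test was also run on simulated independent normal values with known shifts. Those lacked the place pattern and the arrays that stood apart, so they do not show how the test behaves on these data. Correlations are descriptions. Named were the list members, the 10 highest and 5 lowest r with Upp2, the 5 highest r after each place subtraction and without strains 23, 28, 40 and 42, and the 10 measured genes on each side of Upp2. RIKEN and other clone names were not usable. The gene, its lists and the place subtractions were chosen with earlier results of these data known. Subtraction by places of 480 was added after seeing the data, and so were the probes said to be looked up later.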

Additional observations from a re-analysis of the deposited data

How the results depend on the processing

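The mean of Upp2 stayed below 0 and its SD between 1.09 and 1.24 under the alternatives tried. With the same place of 480 subtracted the mean was -0.27 ± 0.22 (SE), and -0.19 ± 0.24 over the 27 arrays. Such a mean describes neither group of strains. The median over 31 strains was then -0.74, with 25 strains below 0 and the 5 high strains between 2.08 and 2.87. Leaving out each strain in turn only describes the values by which Upp2 was chosen, and is no support for its pattern. It gave means from -1.49 to -1.35 and SDs from 1.09 to 1.23. The share of variance taken up by 2 clusters was then from 91.0% to 95.0%. That share was 88.1% after subtraction of the 24 nearest like placed probes and 84.7% after the same place of 480 (an alternative added after seeing the data). After both, the high cluster held 6 strains, the least number asked for, while the widest step had 5 above it. Without strains 23, 28, 40 and 42 the share was 83.02%, where at least 6 strains were still asked of a cluster that then held 5. Of the 10 genes most correlated with Upp2, those kept were 5 after the 24 nearest, 6 after the same place of 480, 2 without the 4 strains, 0 by Spearman's rho, 3 among probes with an SD of at least 0.4 and 2 without strains 8 and 13. For the lists of probes with a passing mean, limma's test of a mean beyond 0.2 gave 3187 higher and 4042 lower in place of 8141 and 8184, and for the uridine and pyrimidine list 3 and 3 in place of 12 and 10, since it asks for a larger mean. The other alternatives kept these counts within 1.5 times. The cause of the other changes was not tested. No paired analysis was possible because there is 1 group of strains. Each strain had 1 array, so no value of Upp2 has a replicate check.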
